A study of Mus musculus with 6 samples.

Results

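Transport between the endoplasmic reticulum (ER) and the Golgi apparatus was followed at the level of mRNA through 43 genes of the COPII and COPI vesicle systems, chosen by their symbols from the 49315 genes of the count table. By role they comprised 14 genes of the COPII coat and its assembly, 11 of the COPI coat and its Arf GTPases, 10 cargo receptors, and 8 tethers and SNAREs. All 43 were found and all passed the filter on low counts, with 133 reads as the lowest count of any member in any library. The libraries came from wild-type RAW264.7 cells, a mouse macrophage-like line kept in culture. In 3 libraries the cells had received SKI-II, a small molecule first described as a sphingosine kinase inhibitor, at 4 μg/mL for 24 h, and in the other 3 a matching amount of DMSO, the solvent. The question put to the genes was whether their mRNA levels differed between SKI-II and DMSO. The methods speak of biological replicates for the qPCR protocol by which these cells were treated and extracted, while the sample labels only number the libraries. Each p-value thus sets the difference between conditions against the spread between these 3 libraries per condition. That spread was estimated with the help of all tested genes.

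Secretory and membrane proteins leave the ER in COPII vesicles. The GTPase Sar1 starts the coat, Sec23 and Sec24 form its inner layer and take up cargo, and Sec13 and Sec31 close it from outside. COPI vesicles, built from coatomer on membranes carrying the GTPase Arf1, return escaped ER proteins and receptors from the Golgi and move material within it. Cargo receptors link soluble proteins in the lumen to these coats, tethers catch the arriving vesicle, and SNARE proteins fuse it with its target. Macrophages use the route for cytokines, lysosomal enzymes and surface receptors.

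The libraries held between 12495957 and 20050677 counted reads and between 16890 and 18196 genes with a read. The macrophage label was met by the data: all 10 macrophage markers were detected, and their summed level was 9013 to 12157 CPM (counts scaled per library total) with DMSO and 5731 to 8083 CPM with SKI-II. All 4 epithelial markers were at 0 in every library, and T cell, B cell and fibroblast markers reached at most 0.422, 0.299 and 1.25 CPM in sum. Neutrophil markers summed to at most 6.99 CPM. Of the macrophage markers, Lyz2 alone was at 5735 to 8829 CPM with DMSO and at 1485 to 3836 CPM with SKI-II, and the other 9 summed to 3278 to 3678 CPM with DMSO and 3841 to 4247 CPM with SKI-II. The 5 macrophage markers that passed the test were Fcgr1 and Cd14, which rose, and Lyz2, Itgam and Adgre1, which fell. Mitochondrial transcripts took 1.07% to 1.25% of the counts in DMSO and 1.38% to 1.71% in SKI-II, with no overlap. The part of the marker levels and of the higher mitochondrial share in the results below was not tested. In such bulk samples fewer cells of a type and less RNA per cell cannot be told apart.

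Most of the transport genes were more abundant with SKI-II, and no member was called lower. With edgeR, fitted across all 12274 tested genes, and a threshold of 0.05 on the adjusted p, 27 of the 43 members (62.8%) were higher, where 18.4% of all tested genes were higher and 19.7% lower. The number lower was 0 also at an unadjusted p below 0.05, in DESeq2 and in limma-voom. A log2 fold change above 1, where 1 is a 2-fold change, was reached by 10 of these members, against 8.28% of all tested genes, and none was called below -1, against 7.44%. In 30 members the 3 SKI-II values all lay above the 3 DMSO values, against 24.8% of all tested genes, and in no member did they all lie below, against 25.5%. The fitted change was above 0 for 37 members and below 0 for 6, where 50.2% of all tested genes were above 0. The median log2 fold change was 0.52 over the members and 0.0038 over all tested genes, whose middle 50% spanned -0.40 to 0.42.

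**Figure D1:**
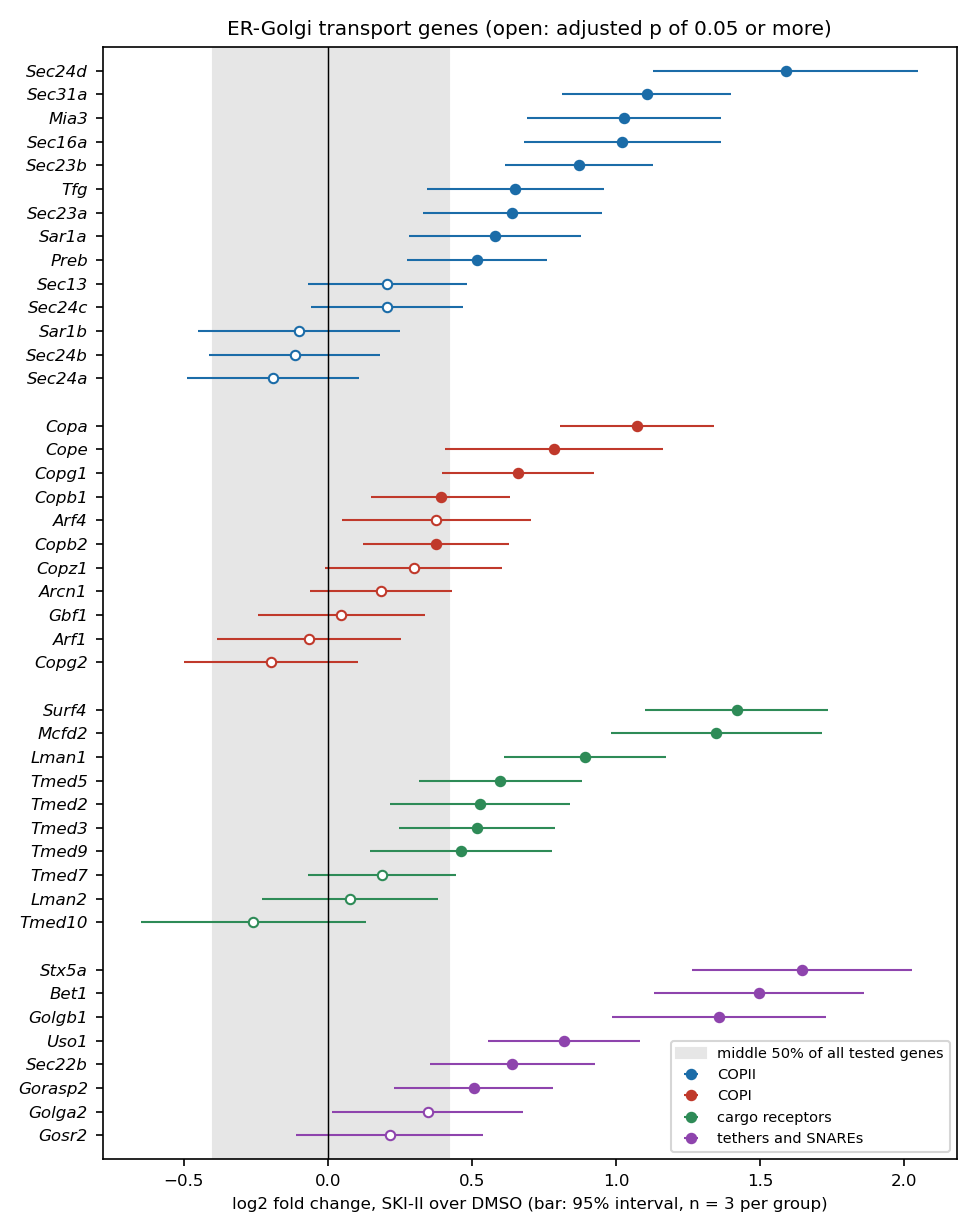
Log2 fold change of SKI-II over DMSO for each of the 43 genes, by group, with 95% intervals (n = 3 libraries per condition). Filled points had an adjusted p below 0.05 and open points did not; the grey band spans the middle 50% of all tested genes. All 27 filled points lie to the right of 0, from 0.38 for Copb2 to 1.65 for Stx5a.

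Every group held genes that rose. They were 9 of 14 COPII genes, 5 of 11 COPI genes, 7 of 10 cargo receptors, and 6 of 8 tethers and SNAREs. The median log2 fold change over all genes of each group was 0.61, 0.38, 0.52 and 0.73 in that order. No test of the differences between the groups was made. Together the members drew 0.616% ± 0.0108 (SD, n = 3) of all counts in DMSO and 0.912% ± 0.0374 in SKI-II. For COPII this share was 0.139% ± 0.0107 and 0.221% ± 0.0221, and for COPI 0.234% ± 0.00485 and 0.316% ± 0.00475. Cargo receptors went from 0.163% ± 0.0129 to 0.240% ± 0.00667, and tethers and SNAREs from 0.0800% ± 0.000979 to 0.135% ± 0.0142. In all 4 groups the share was higher in each treated library than in any control library.

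Within a condition the libraries also differed for these genes. DMSO replicate 3 held the highest DMSO value for 26 of the 43 members, most clearly among the cargo receptors, whose median there was 0.20 above the DMSO mean on the log2 scale against -0.09 and -0.08 in replicates 1 and 2. Among the SKI-II libraries the highest value was spread over replicates 1, 2 and 3 for 16, 16 and 11 members. Without DMSO replicate 3 the number of members called higher was 30, and without DMSO replicate 2 it was 21. Of all tested genes 16.8% and 11.97% were higher in these fits, against 18.4% in the main fit. The fall in calls without DMSO replicate 2 was thus not limited to these members.

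**Figure D2:**
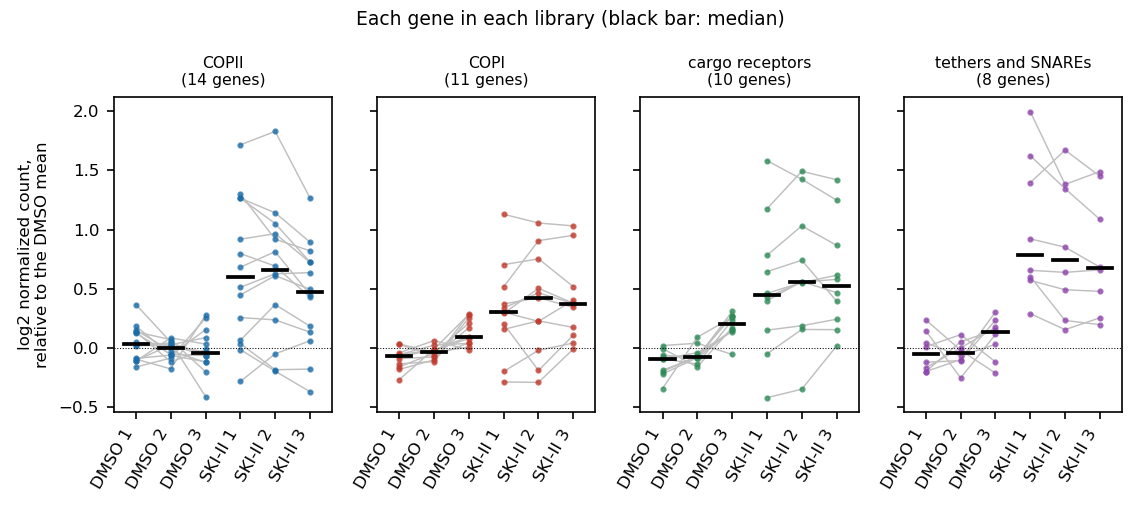
Normalized count of every gene in every library as a log2 difference from the gene's DMSO mean, with a panel for each group. Points are genes, grey lines join a gene's values within a condition, and black bars are medians, which lie between 0.30 and 0.79 in the SKI-II libraries of all groups.

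Promoter sequence was searched for motifs of ER stress factors, which are known to act on genes of the secretory pathway. RefSeq promoters on GRCm38.p6, from 250 bases before to 50 bases after a gene's start, were matched by symbol for 38 of the 43 members. On both strands, the core of the unfolded protein response element (UPRE), TGACGTG, which XBP1, ATF6 and CREB3-type factors are known to bind, was present in 8 of the 38 (21.1%). It was present in 2.01% of all promoters of the table, counted per promoter. Counted per gene, as for the members, it was present in 3.33% of the tested genes with a promoter. The 8 were Sec24d, Stx5a, Sec23a, Mia3, Copb1 and Copb2, which were called higher, and Arf1 and Gbf1, which were not. The share was thus 6 of 24 called members and 2 of 14 others. Only the Mia3 match lay upstream of the annotated starts, and the other matches lay at or after a RefSeq or GENCODE start. The windows around each match are shown so that the flanks of members that rose can be read against those of members that did not, with the core in capitals (CACGTCA where it lies on the other strand) and each read 5′ to 3′ along the gene's strand.
Sec24d, chr3:123267459-123267487, plus strand: gcccgggcgccTGACGTGgcactagcaac
Stx5a, chr19:8741452-8741473, plus strand: gtacgtctaggTGACGTGgcgg
Stx5a, chr19:8741423-8741451, plus strand: ggcgcagcagcCACGTCAccgagttagga
Sec23a, chr12:59011994-59012022, minus strand: ctcctccccttTGACGTGgcagaggcggc
Mia3, chr1:183369619-183369677, minus strand: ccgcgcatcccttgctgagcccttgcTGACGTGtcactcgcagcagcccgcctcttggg
Copb1, chr7:114254690-114254718, minus strand: ccgcccccttcCACGTCAgccaaggactt
Copb2, chr9:98563714-98563742, plus strand: cccggaagttcCACGTCAgtgggttggcc
Arf1, chr11:59228229-59228257, minus strand: gcggcaggcgcTGACGTGgctgccgtcag
Gbf1, chr19:46152536-46152564, plus strand: aggctagttacCACGTCAgtgagctgaca

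The windows of Sec24d, Sec23a and Arf1 and both windows of Stx5a, the second on the other strand, share TGACGTGGC, which holds the core and also meets the letters of the antioxidant response element (ARE), TGACNNNGC, so the searches overlap there. The ARE letters were present in 8 of 38 members (21.1%) and in 17.0% of the tested genes with a promoter, both counted per gene. Counted per promoter, they were present in 12.4% of all promoters. No member promoter held the ER stress response elements ERSE or ERSE-II or the CARE motif (TTGCATCA) bound by ATF4 and CHOP, which were present in 0.119%, 0.0365% and 0.895% of all promoters. The RefSeq start used for Sec24a lies 6800 bases inside the GENCODE gene, so its window there is another than the region at its annotated start. A match is a description of the letters in these windows and does not show that a factor was bound.

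Among the COPII genes, Sec24d, Sec31a, Mia3 and Sec16a had the largest changes. Sec24d, a cargo-binding subunit of the inner coat (chromosome 3, 123267455 to 123365641 in GENCODE M21 on GRCm38), held 1204, 967 and 702 normalized counts in DMSO replicates 1, 2 and 3 and 3074, 3325 and 2250 in SKI-II replicates 1, 2 and 3. Normalized counts are reads scaled to a common library size. The lowest SKI-II library was above the highest DMSO library, and the change was 3.01-fold (95% interval 2.19 to 4.14), a log2 fold change of 1.59 ± 0.21 (SE, adjusted p = 0.000361). Sec31a, the outer cage subunit, went from 3414, 3476 and 3249 to 8117, 7454 and 6277. Its DMSO libraries lay close together and all SKI-II libraries lay far above them, at 2.15-fold (adjusted p = 0.000205).

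Mia3 (TANGO1) spans the ER membrane at exit sites and helps to load large cargo such as procollagen. It had 1137, 1004 and 997 normalized counts with DMSO and 2512, 2164 and 1726 with SKI-II, a 2.04-fold rise (adjusted p = 0.000683) with no overlap. Sec16a, the scaffold on which exit sites form, had 2243, 1889 and 1817 with DMSO and 4866, 3731 and 3486 with SKI-II, 2.03-fold (adjusted p = 0.000776). For both genes replicate 1 was the highest library in each condition. Tfg, which also helps to organise exit sites, and Preb, the exchange factor that loads Sar1 with GTP, rose with log2 fold changes of 0.65 and 0.52 (adjusted p = 0.00485 and 0.00447). Sec13, the partner of Sec31a in the cage, was not called (log2 fold change 0.21, 95% interval -0.07 to 0.48).

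Within the paralogue sets of the inner coat and its GTPase, the calls were split for Sec24 and Sar1 and shared for Sec23. Of the 4 Sec24 genes, whose proteins differ in the export signals they recognise, Sec24d was the only one called. Sec24a had 902, 1035 and 997 normalized counts with DMSO and 966, 851 and 754 with SKI-II, Sec24b 1649, 1576 and 1305 and then 1539, 1321 and 1326, and Sec24c 3550, 2974 and 3200 and then 3859, 3806 and 3542. The conditions overlapped for all 3, with 95% intervals of the log2 fold change of -0.49 to 0.11, -0.41 to 0.18 and -0.06 to 0.47.

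As a share of all Sec24 counts, which does not depend on library scaling, Sec24d was 16.5%, 14.8% and 11.3% with DMSO and 32.6%, 35.7% and 28.6% with SKI-II. Sec24c, the largest share in each condition, was 48.5% ± 3.09 (SD, n = 3) in DMSO and 42.3% ± 2.36 in SKI-II. Sec24b went from 22.6% ± 1.51 to 15.8% ± 1.40 and Sec24a from 14.7% ± 2.07 to 9.65% ± 0.545. None of these 4 shares overlapped between the conditions. The shares, here and for the pairs that follow, are descriptions, and no difference between paralogues was tested.

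Both paralogues of Sec23, the coat subunit that stimulates GTP hydrolysis by Sar1, rose. Sec23b had 1547, 1523 and 1430 normalized counts with DMSO and 2833, 2927 and 2474 with SKI-II (1.83-fold, adjusted p = 0.000374). Sec23a had 670, 684 and 793 with DMSO and 1240, 1152 and 959 with SKI-II (1.56-fold, adjusted p = 0.00557). The conditions did not overlap for either gene, and the share of Sec23a within the pair, 32.3% ± 2.95 and 28.9% ± 1.37, did overlap.

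Of the Sar1 pair only Sar1a was called, with 1525, 1607 and 2032 normalized counts with DMSO and 2435, 2635 and 2653 with SKI-II (log2 fold change 0.58, adjusted p = 0.00745). Sar1b had 734, 694 and 951 with DMSO and 645, 758 and 818 with SKI-II, values that overlapped (log2 fold change -0.10, 95% interval -0.45 to 0.25). The share of Sar1a within the pair was 68.5% ± 1.22 with DMSO and 77.7% ± 1.32 in SKI-II, without overlap.

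Sec24a and Sar1b, neither of them called, lie head to head, with annotated starts 53 bases apart on opposite strands. The stretch between the starts, shown because these members share it as a common upstream region, has a GC content of 75% and is read here on the plus strand of GRCm38.p6.
Sec24a and Sar1b, chr11:51763635-51763686: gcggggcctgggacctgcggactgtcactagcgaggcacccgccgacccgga

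**Figure D3:**
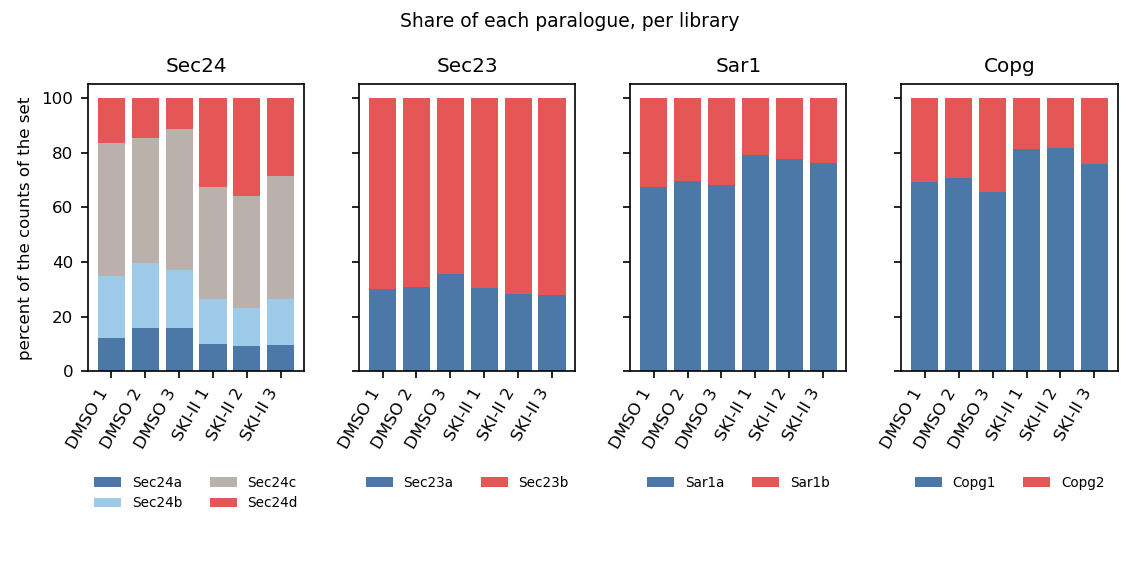
Percent of the counts of each paralogue set taken by each gene in each library, for Sec24, Sec23, Sar1 and Copg. Bars run from 0 to 100%; the Sec24d segment is at most 16.5% in DMSO and at least 28.6% in SKI-II, and the Sec23 segments overlap between conditions.

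In the COPI group the genes that rose were all coatomer subunits, 5 of 8. Copa, the alpha subunit of the outer coat (chromosome 1, 172082529 to 172122330), had 6135, 5840 and 6025 normalized counts with DMSO and 13123, 12468 and 12258 with SKI-II. The libraries of each condition lay close together and the conditions far apart, at 2.10-fold (95% interval 1.75 to 2.53, adjusted p = 0.000142). It was the only COPI member with a log2 fold change above 1. Cope, the epsilon subunit that binds the alpha subunit, had 1926, 2303 and 2821 with DMSO and 3318, 4351 and 4488 with SKI-II (1.72-fold, adjusted p = 0.00534), and replicate 1 was lowest in both conditions.

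The gamma subunit, part of the inner layer that contacts Arf1 and cargo tails, has paralogues in Copg1 and Copg2. Copg1 had 2860, 3075 and 2913 normalized counts with DMSO and 4799, 4967 and 4219 with SKI-II, a 1.58-fold rise without overlap (adjusted p = 0.00193). Copg2 had 1260, 1274 and 1511 with DMSO and 1099, 1096 and 1333 with SKI-II, values that overlapped, with a 95% interval of the log2 fold change from -0.50 to 0.10. The share of Copg1 within the pair went from 68.7% ± 2.52 to 79.8% ± 3.28, and the libraries of the conditions did not overlap.

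Smaller rises were called for Copb1 and Copb2, the beta and beta' subunits. Copb1 had 2439, 2578 and 2605 normalized counts with DMSO and 3207, 3504 and 3291 with SKI-II (1.31-fold, adjusted p = 0.0172), and Copb2 was 1.30-fold higher (adjusted p = 0.0250). The conditions did not overlap for either, but both calls were lost when DMSO replicate 1, DMSO replicate 2 or the treated replicate 2 was left out, and then Copb1 had an adjusted p of up to 0.0796 and Copb2 of up to 0.121. The number of COPI genes called was then 3. The zeta subunit Copz1 and the delta subunit Arcn1 were not called (log2 fold changes 0.30 and 0.18, 95% intervals -0.01 to 0.61 and -0.06 to 0.43).

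None of the 3 genes that recruit coatomer was called by edgeR, DESeq2 or limma-voom. Arf1, the GTPase on which the coat assembles, had a log2 fold change of -0.07 (95% interval -0.38 to 0.25), and Gbf1, its exchange factor at the early Golgi, of 0.05 (-0.24 to 0.34). Arf4, a related GTPase, had 1109, 1174 and 1536 normalized counts with DMSO and 1541, 1784 and 1636 with SKI-II. Its conditions were separated by a margin of only a few counts, and the log2 fold change was 0.38 (95% interval 0.05 to 0.70, adjusted p = 0.0675). It was called under library size alone (adjusted p = 0.0406), in a fit blocked on replicate number (adjusted p = 0.0341) and without DMSO replicate 3 (adjusted p = 0.0121). Arf1 and Gbf1 carry the UPRE core in the windows printed above, and the promoter window of Copa holds no match.

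Among the cargo receptors, Surf4, Mcfd2 and Lman1 had the largest changes. Surf4 (chromosome 2, 26920040 to 26933928), which carries lipoproteins and other soluble proteins out of the ER, had 3433, 3080 and 3881 normalized counts with DMSO and 10340, 9265 and 8199 with SKI-II. The SKI-II libraries were all far above the DMSO libraries, at 2.67-fold (95% interval 2.15 to 3.33, log2 fold change 1.42 ± 0.14 SE, adjusted p = 7.99e-05). Lman1 (ERGIC-53) and Mcfd2 form a receptor for blood coagulation factors and other glycoproteins. Mcfd2 had 800, 1082 and 1214 with DMSO and 2296, 2862 and 2724 with SKI-II (2.55-fold, adjusted p = 0.000244), and Lman1 had 2706, 2805 and 3177 and then 4967, 5904 and 5268 (1.86-fold, adjusted p = 0.000528). Neither gene overlapped between the conditions, and both were lowest in replicate 1 in each. Lman2, another lectin of this route, was not called (log2 fold change 0.08, 95% interval -0.23 to 0.38).

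The p24 proteins, encoded by the Tmed genes, cycle between ER and Golgi and select anchored cargo. Of 6 members 4 rose, all with log2 fold changes below 1. Tmed5 had 1081, 1095 and 1026 normalized counts with DMSO and 1667, 1782 and 1402 with SKI-II (1.51-fold, adjusted p = 0.00477), with no overlap. Tmed2, Tmed3 and Tmed9 had log2 fold changes of 0.53, 0.52 and 0.46 (adjusted p = 0.0143, 0.00804 and 0.0274). All 3 calls were lost without DMSO replicate 2, leaving 4 of 10 cargo receptors called. Tmed7 and Tmed10 were not called (0.19 and -0.26, 95% intervals -0.07 to 0.45 and -0.65 to 0.13), and Tmed10 had the lowest fitted value of all 43 members.

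The tethers and SNAREs held the largest fold change of the 43. Stx5a (chromosome 19, 8741413 to 8756069), the syntaxin at the centre of the ER to Golgi and intra-Golgi SNARE complexes, had 482, 517 and 441 normalized counts with DMSO and 1911, 1248 and 1345 with SKI-II. Replicate 1 stood above the other SKI-II libraries, and all 3 stood above DMSO, at 3.13-fold (95% interval 2.40 to 4.08, log2 fold change 1.65 ± 0.17 SE, adjusted p = 9.76e-05). Bet1, its partner in the same complex, had 221, 168 and 217 with DMSO and 528, 639 and 548 with SKI-II (2.82-fold, adjusted p = 0.000123). The third called SNARE was Sec22b, with a log2 fold change of 0.64 (adjusted p = 0.00361). Gosr2 (membrin), which completes the complex with Stx5a and Bet1, was not called (0.22, 95% interval -0.11 to 0.54).

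Of the tethers, Golgb1 (giantin), a long coiled-coil protein of the Golgi rim, had 2014, 1686 and 1474 normalized counts with DMSO and 5276, 4348 and 3631 with SKI-II (2.56-fold, adjusted p = 0.000256). Uso1 (p115), which tethers COPII and COPI vesicles through giantin and Golga2, had 2775, 2567 and 2750 with DMSO and 5105, 4862 and 4325 with SKI-II (1.77-fold, adjusted p = 0.000593). In both genes the conditions were well separated and SKI-II replicate 1 was highest. Gorasp2, a Golgi stacking protein, rose with a log2 fold change of 0.51 (adjusted p = 0.00976), a call lost without DMSO replicate 2 (adjusted p = 0.0547), while Golga2 (GM130), the cis-Golgi anchor of Uso1, was not called although its libraries did not overlap (0.35, 95% interval 0.02 to 0.68, adjusted p = 0.0923).

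Levels of different genes were compared per length, as scaled CPM per kilobase of exon. Arf1 was the most abundant member, at 249.9 ± 33.4 (SD, n = 3) in DMSO and 238.7 ± 20.3 in SKI-II. In DMSO it was followed by Tmed10 (67.2 ± 13.2) and Surf4 (65.8 ± 7.62), whose spreads overlap. In SKI-II the level of Surf4 was 176.1 ± 20.3 and that of Copa 83.4 ± 2.98, while Tmed10 was at 56.2 ± 9.47. Bet1 was the least abundant member in DMSO, at 3.38 ± 0.495, and stood at 9.56 ± 0.990 in SKI-II. Sec24d, at 9.44 ± 2.48 in DMSO, was below Sec24b (15.6 ± 1.88) and Sec24c (32.1 ± 2.87), and in SKI-II it stood at 28.4 ± 5.54, between Sec24b (14.4 ± 1.29) and Sec24c (37.0 ± 1.68). Members with low levels in DMSO were thus found both among those that rose, as Bet1 and Stx5a (5.15 ± 0.409), and among those that were not called, as Sec24a (5.71 ± 0.398).

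**Figure D4:**
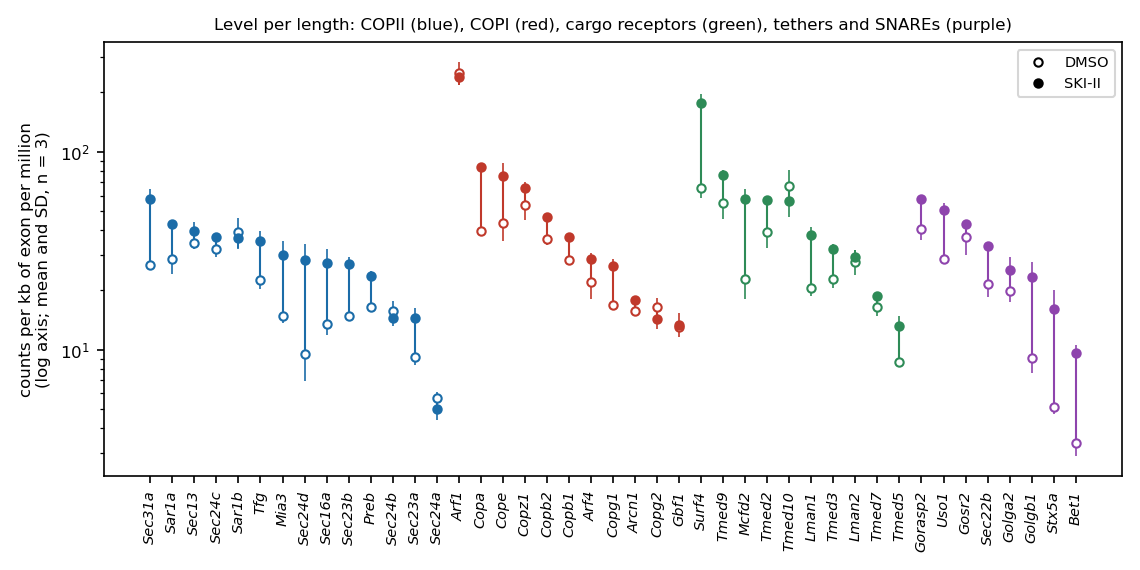
Level of each of the 43 genes per kilobase of exon on a log axis, with open points for DMSO, filled points for SKI-II, and SD over 3 libraries as bars. A line joins the conditions; Arf1 is highest at 249.9 in DMSO and Bet1 lowest at 3.38.

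The rest of the ER to Golgi machinery was taken from a list of 78 further genes, of which 74 passed the filter and 4 (Cideb, Tmed6, Tmed11 and Lman1l) did not. Of the 74, 20 were called higher (27.0%, against 18.4% of all tested genes) and 3 lower (4.05%, against 19.7%), with a median log2 fold change of 0.19. The number lower was 8 without DMSO replicate 1 and 8 in a fit blocked on replicate number. In these fits 18.8% and 23.0% of all tested genes were lower. Mia2, the relative of Mia3 that works beside it, had 3055, 3010 and 3075 with DMSO and 5782, 7096 and 6178 with SKI-II (log2 fold change 1.06, adjusted p = 0.000172). Next came Arfgap1, which switches Arf1 off on COPI vesicles (1.05, adjusted p = 0.00334), Scfd1, the SNARE regulator that binds Stx5a (0.98, adjusted p = 0.000256), and Yipf5, a Golgi membrane protein (0.96, adjusted p = 0.000411). The smallest called rises were those of Rab6a (0.44, adjusted p = 0.0173), a Golgi Rab GTPase, and Lman2l (0.42, adjusted p = 0.0216), a lectin. Both calls were lost without DMSO replicate 2 (adjusted p = 0.100 and 0.101) and without SKI-II replicate 1 (adjusted p = 0.0517 and 0.0658). Kdelr3, a receptor that returns ER-resident proteins, had the highest fitted value, a log2 fold change of 2.74 ± 0.53 (SE), on few reads, with 8, 6 and 11 raw counts in DMSO replicates and 67, 85 and 29 in those of SKI-II. It passed the filter on low counts only through the SKI-II libraries, where it is high, so its call is no support for the list, and under the stricter filter of 10 counts per library it was not tested and 19 genes of the list were called higher.

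Called lower were Tmed1, a p24 protein, with 267, 298 and 356 normalized counts with DMSO and 124, 165 and 155 with SKI-II (log2 fold change -1.05, adjusted p = 0.00209), and Trappc5 and Trappc8 of the TRAPP tethering complex (-0.64 and -0.48, adjusted p = 0.00472 and 0.00887). The conditions did not overlap for any of the 3. By role, and beside the 18.4% of all tested genes that were higher, all 4 genes of Yip and Golgi membrane proteins rose, as did 2 of 3 subunits of the NRZ tether that receives COPI vesicles at the ER, 2 of 3 golgins and 4 of 11 SNARE and fusion genes. Among the 4 retrieval receptors, apart from Kdelr3, Kdelr2 rose and Kdelr1 and Rer1 were not called. In the Arf, Arf GAP and COPI genes 2 of 7 rose (median log2 fold change 0.04), in the COPII-associated genes 1 of 6 (median 0.12), in the Rab genes 1 of 4 (median -0.09) and in the COG tether 1 of 8, Cog8 (median 0.16). The roles were not tested against each other. Of the 10 further cargo receptors 1 rose and 1 fell, with a median of -0.03, and of the 14 TRAPP genes the 2 named fell and the other 12 were not called. These roles were assigned after the values were known.

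**Figure D5:**
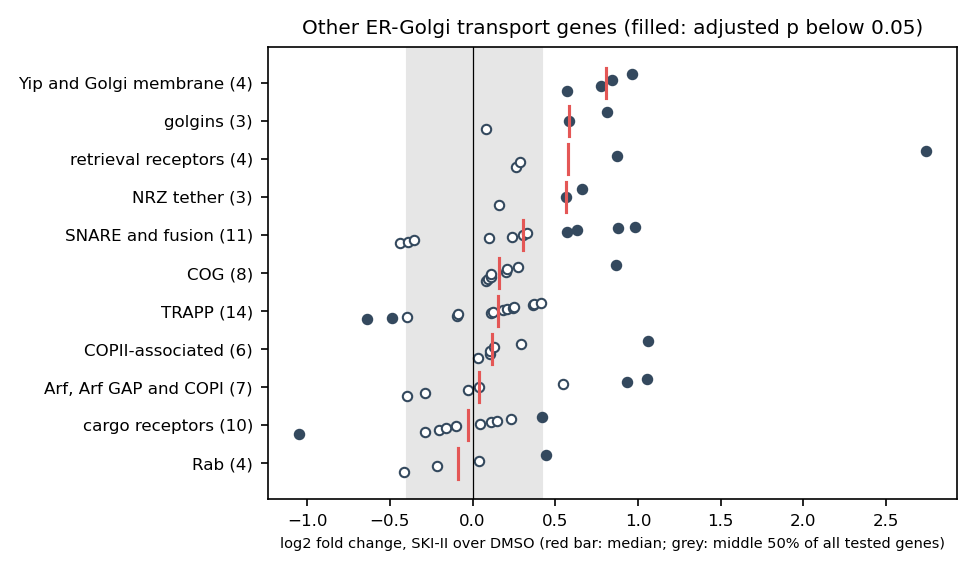
Log2 fold change of SKI-II over DMSO for the 74 tested genes of the further list, by role, with the number of genes in brackets. Filled points had an adjusted p below 0.05, red bars are medians and the grey band spans the middle 50% of all tested genes; Kdelr3, which passed the filter only through the SKI-II libraries, lies farthest right at 2.74 and Tmed1 farthest left at -1.05.

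Of 7 transcription factors known to drive secretory pathway genes, 3 rose, where 18.4% of all tested genes did. They were 3 of the 5 CREB3 family members listed, a family activated by cleavage in the Golgi. Creb3 had 609, 599 and 604 normalized counts with DMSO and 1800, 1459 and 1239 with SKI-II (log2 fold change 1.31, adjusted p = 0.000158). Creb3l2, known for its control of Sec23a, had 535, 646 and 803 and then 1498, 1137 and 1304 (0.99, adjusted p = 0.00165). Creb3l4 was scarce in DMSO, at 14.6, 16.4 and 16.8, and reached 119.7, 88.7 and 105.9 in SKI-II (2.71, adjusted p = 9.25e-05). No value overlapped between the conditions in these 3 genes. Xbp1 (0.35, adjusted p = 0.0871), Atf6 (0.18, adjusted p = 0.460), Creb3l1 (0.25, adjusted p = 0.629) and Creb3l3 (-0.23, adjusted p = 0.671) were not called. The counts do not show Xbp1 splicing or the cleavage of Atf6, by which these factors are activated.

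Some members share sequence or a start region with another gene, and the counting is not stated to use strand, so that reads of genes overlapping on opposite strands cannot be told apart. Copa and Ncstn overlap at their starts, and Ncstn had 10354 counts over the 6 libraries against 56863 for Copa, with a log2 fold change of 0.43 (adjusted p = 0.0104). Surf4 overlaps Surf2, which had 1297 counts against 38905 and a log2 fold change of -0.36 (adjusted p = 0.208). Tmed5 overlaps Mtf2 (3422 counts against 8095, log2 fold change -0.37, adjusted p = 0.0514). Gorasp2 overlaps Tlk1 (7565 against 19689, -0.07, adjusted p = 0.708). Among members that were not called, Golga2 overlaps Swi5 (7620 against 11861, -0.14, adjusted p = 0.362). Arf4 overlaps Pde12 (3943 against 8877, -0.17, adjusted p = 0.324). Tmed7 shares exon sequence on its own strand with Ticam2, which rose (3104 against 14999, 1.16, adjusted p = 0.000355). Of the neighbours that start within 1000 bases on the opposite strand, Ddx49 beside Cope rose (0.35, adjusted p = 0.0478), Eif1a beside Tmed7 rose (0.45, adjusted p = 0.0158), Ccdc18 beside Tmed5 fell (-0.96, adjusted p = 0.0235), and Ift46 beside Arcn1 was not called (0.32, adjusted p = 0.113).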

How the data were processed

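Poly(A) RNA of 6 libraries was sequenced, 3 per condition. Per the labels and the submitters' processing notes, the authors trimmed reads with Trimmomatic 0.36, mapped them with STAR 2.5.2b, counted them per gene with featureCounts of Subread 1.5.2, and deposited the raw counts without normalization. The paper states that normalized expression data were deposited as well, and only the raw counts were used here. The authors compared conditions with DESeq2. Genome build, annotation and strandedness and the handling of reads shared by near-identical copies are not given in the sources used. All columns were used.

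Conditions came from the sample labels, the dose from the methods, and the time from a legend of the study. Symbols, positions and exon lengths came from GENCODE M21 (GRCm38), which named 48970 of 49315 identifiers. Counts were tested with edgeR 4.0.16 (quasi-likelihood, TMM scaling with factors of 0.941 to 1.05, minimum count 10, minimum total 15, R 4.3.3), adjusted by Benjamini-Hochberg over 12274 genes, which held at least 99.9% of each library. The common biological coefficient of variation was 17.5%. Normalized counts were scaled to 16042438 reads. Members, gene lists and roles were written from general knowledge with earlier results of these data known. In each group the 4 members with the largest absolute log2 fold change and the paralogue sets Sec23, Sec24, Sar1 and Copg were given per library, and the 5 largest and 5 smallest called changes of the further list were named, except that where only 3 genes fell the smallest rises complete the 5. Other members were added by their log2 fold change.

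Alternatives were DESeq2 1.42.0, limma-voom 3.58.1, RLE scaling, library size alone, no filter, at least 10 counts in every library, the replicate number as a block, and each library left out in turn. On simulated counts with 200 genes changed by a log2 fold change of 2, edgeR recovered 99% with 7 false calls over 12118 genes, limma-voom the same, and DESeq2 97.5% with 16 false calls over 12274 genes. No libraries of a condition agreed within counting error (chi-square over its degrees of freedom, 15.4 to 58.1). Protein sequences were not used here.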

Additional observations from a re-analysis of the deposited data

How the results depend on the processing

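No member was called lower under any of the 13 alternatives, and the number called higher was 26 to 29 under the 7 that kept all libraries and 21 to 30 when a library was left out. With a log2 fold change above 1 also required it was 10, under the 7 as well, and 8 to 10 when a library was left out, the 8 being found when replicate 2 or 3 of DMSO or replicate 1 of SKI-II was left out. COPI genes called higher numbered 3 to 7 with a library left out, and their median log2 fold change was 0.27 to 0.42, lowest without DMSO replicate 1. Cargo receptors called higher numbered 4 to 7. The further list had 5 genes called lower under library size alone and 3 to 8 with a library left out, 8 of them without DMSO replicate 1 and 5 when SKI-II replicate 3 was left out. Of all tested genes 19.7% were lower under library size alone and 14.0% to 18.9% with a library left out. The share of all tested genes called higher with a library left out was 11.97% to 17.7%, lowest without DMSO replicate 2. DESeq2, limma-voom, RLE scaling and the stricter filter changed the call of none of the 43 members, no filter lost only Copb2 (adjusted p = 0.0632), and library size alone added Arf4 (adjusted p = 0.0406).

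Whether the replicate numbers pair the samples could not be decided. Same-numbered libraries had correlations of 0.246, 0.0099 and 0.458 between their deviations from the condition mean. DMSO replicate 1 correlated at 0.296 with SKI-II replicate 2. DMSO replicate 3 correlated at -0.255 and -0.280 with SKI-II replicates 1 and 2. Deviations from a mean of 3 libraries depend on each other, so such correlations cannot show or exclude pairing. With the number as a block, 29 members were called higher, Copz1 and Arf4 joining (adjusted p = 0.0396 and 0.0341), Xbp1 was called (adjusted p = 0.0208), and the further list had 8 genes lower. In that fit 22.5% of all tested genes were higher and 23.0% lower, against 18.4% and 19.7% in the main fit.

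Some signs turned among genes that were not called. Without DMSO replicate 3 the log2 fold changes of Sar1b and Arf1 were 0.050 and 0.043, within ranges over the left-out libraries of -0.19 to 0.050 and -0.16 to 0.043. Gbf1 ranged from -0.043 (SKI-II replicate 1 left out) to 0.16, and Atf6 from -0.017 (DMSO replicate 1 left out) to 0.33. Without DMSO replicate 3 Copz1, Gosr2 and Xbp1 were called (adjusted p = 0.0272, 0.0416 and 0.0470). Calls of Tmed9 were lost in 4 of the 6 fits that left out a library (adjusted p up to 0.129). Gorasp2 was lost without DMSO replicate 2 (adjusted p = 0.0547). Lman2l and Rab6a were lost without DMSO replicate 2 or SKI-II replicate 1. The causes were not tested. The members whose calls were lost with a library left out had log2 fold changes of 0.38 to 0.53, and with 3 libraries per condition calls of that size rest on few values.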
